A study of Mus musculus with 8 samples.

Results

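The genes of the phagocyte NADPH oxidase were followed through 8 RNA-seq libraries made from FACS-sorted neutrophils of mice. They are Cybb, Cyba, Ncf1, Ncf4, Rac1, Rac2 and Hvcn1, taken by symbol from the deposited count table, 7 of its 55450 genes. The cells came from brain tumours grown from SB28, a mouse glioma line, or were raised in vitro from the bone marrow of naive mice. Each origin was sorted on CD71, the transferrin receptor, which gave tumour CD71+, tumour CD71-, culture CD71+ and culture CD71- groups with 2 libraries each. No strain, age, sex, culture agent or sort gate beyond CD71 was given in the sources used here, and the series title names hypoxia and histone lactylation in tumour neutrophils as its subject. Nothing in the labels ties a sample to its own animal or culture dish, so the p-values rest on sample-to-sample spread that may be technical.

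The phagocyte oxidase moves electrons from NADPH in the cytosol to oxygen in the phagosome or outside the cell, which makes superoxide for the respiratory burst. Cybb encodes gp91phox, the flavin- and heme-bearing core, and Cyba encodes p22phox, its membrane partner. The cytosolic subunits, among them p47phox (Ncf1) and p40phox (Ncf4), join the membrane pair when the cell is stimulated, together with a GTP-loaded Rac protein, mainly Rac2 in neutrophils. Hvcn1 encodes the voltage-gated proton channel that lets protons follow the electrons and so holds back membrane depolarisation. Loss of the core or cytosolic subunits causes chronic granulomatous disease.

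Total counts ran from 9598959 to 22615813 per library, and the 7 genes together took 0.172% to 0.235% of them. Tfrc, which encodes CD71, was not higher in the CD71+ fractions at the transcript level with TMM factors. Its level was 103 and 108 CPM (counts scaled to a common library size) in tumour CD71+ cells, against 187 and 145 CPM in tumour CD71- cells (log2 fold change -0.65, SE 0.19, adjusted p = 0.0134, edgeR's quasi-likelihood test). In culture it was 116 and 115 CPM in CD71+ cells, against 131 and 94.3 CPM in CD71- cells. Scaled on mature neutrophil genes, its log2 fold change was 0.27 in the tumour (adjusted p = 0.371) and 0.9 in culture (adjusted p = 0.00549). A surface sort need not follow the transcript, and the groups are named here by their labels. Mitochondrial transcripts took 0.829% and 1.043% of counts in tumour CD71+, 0.413% and 0.202% in tumour CD71-, 1.449% and 2.174% in culture CD71+, and 7.094% and 12.002% in culture CD71- libraries. The part of this difference in the results was not tested.

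Markers of the labelled cell type were present in every library. Csf3r, the receptor for granulocyte colony-stimulating factor, stood at 2299 and 1996 CPM in tumour CD71+, 5780 and 5332 CPM in tumour CD71-, 311 and 351 CPM in culture CD71+, and 1874 and 1447 CPM in culture CD71- libraries. Markers of other myeloid cells were present too and moved with the sort. The summed level of 20 macrophage and monocyte genes was 6058 to 6100 CPM in tumour CD71+, 1096 to 1234 CPM in tumour CD71-, 2000 to 2692 CPM in culture CD71+ and 1019 to 1070 CPM in culture CD71- libraries. C1qa and Cd163 of that list were at 0 in both culture CD71- libraries. Tmem119, a microglial gene, was at 87.7 and 77.2 CPM in tumour CD71+, 9.22 and 10.9 CPM in tumour CD71-, 57.1 and 49.8 CPM in culture CD71+, and 19.9 and 29.8 CPM in culture CD71- libraries. Siglech and Sall1, also on the microglia list, were at 0 in both libraries of each culture group. The summed level of the 10 microglia genes, Tmem119 among them, was 159 to 173 CPM in tumour CD71- libraries. It was 126 to 155 CPM in culture CD71+ and 66.5 to 67.4 CPM in culture CD71- libraries. Adgre1, the macrophage antigen F4/80, was at 110 and 121 CPM in tumour CD71+, 74 and 66.4 CPM in tumour CD71-, 98.3 and 85.2 CPM in culture CD71+, and 60 and 61.2 CPM in culture CD71- libraries. In these bulk libraries, fewer cells of a type and less RNA per cell cannot be told apart.

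**Figure D1:**
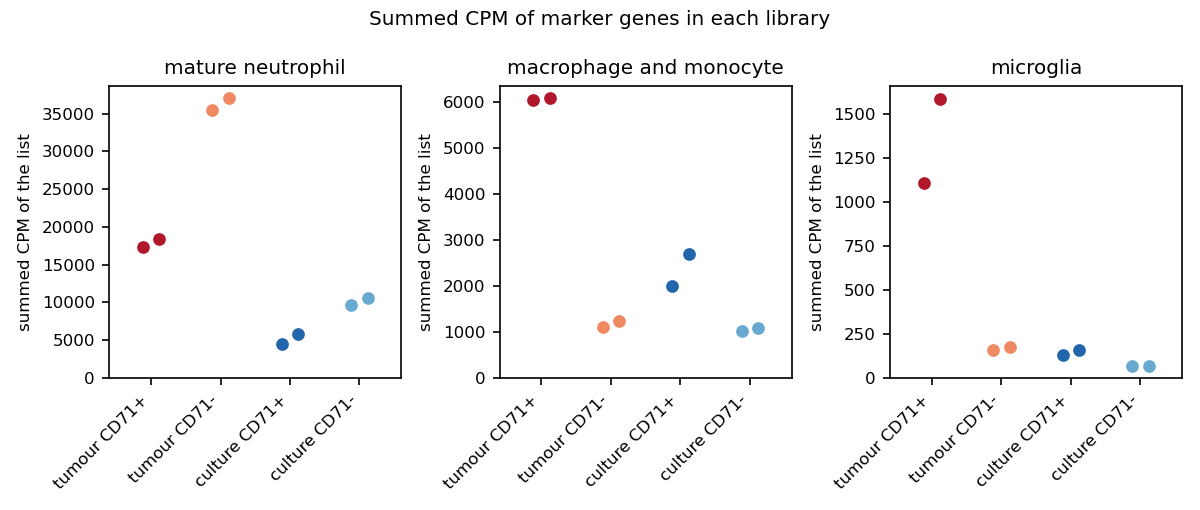
Summed CPM of the genes of 3 marker lists (y axis, linear, from 0) in each of the 8 libraries, 1 point a library. The mature neutrophil list stood highest in tumour CD71- libraries (35496 to 37063 CPM), while the macrophage and monocyte list (6058 to 6100 CPM) and the microglia list (1107 to 1584 CPM) stood highest in tumour CD71+ libraries.

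In the mouse build mm10, Cybb lies on the minus strand of chromosome X (9435252 to 9487771). Ncf1 (5, 134220053 to 134229625) and Rac1 (5, 143503634 to 143528036) lie on the minus strand and Hvcn1 (5, 122206804 to 122242297) on the plus strand of chromosome 5. Cyba lies on the minus strand of chromosome 8 (122424776 to 122432930). Ncf4 (15, 78244801 to 78262580, plus strand) and Rac2 (15, 78559167 to 78572783, minus strand) are 296.6 kb apart on chromosome 15. Exons of 3 of the genes share bases with a gene on the opposite strand. Rac1 shares 51.36% of its exon length with Daglb, Hvcn1 shares 44.18% with Tctn1, and Ncf1 shares 11.14% with Gtf2ird2. The library kit keeps strand, but the strand setting of the counting was not given in the sources used here, so the counts of these 3 genes are uncertain by what their partners add or remove.

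The promoters of Cybb and Ncf1 are shown because the ratio of these genes of the complex, which needs no scaling, differed between all 4 groups. That pair was thus chosen from these same values. The 250 bases before the RefSeq start of each gene (GRCm38.p6, minus strand, 5′ to 3′) were chrX:9469325-9469574 for Cybb and chr5:134229626-134229875 for Ncf1. The Cybb start of RefSeq lies inside the longer gene of GENCODE. Capitals mark matches on either strand to GAAA, any 2 bases, then GAAA again, a motif of the kind bound by interferon regulatory factors.
Cybb: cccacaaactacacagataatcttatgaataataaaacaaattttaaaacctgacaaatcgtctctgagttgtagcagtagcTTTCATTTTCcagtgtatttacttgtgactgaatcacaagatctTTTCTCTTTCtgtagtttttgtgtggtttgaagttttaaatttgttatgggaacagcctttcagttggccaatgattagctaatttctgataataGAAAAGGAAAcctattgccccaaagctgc
Ncf1: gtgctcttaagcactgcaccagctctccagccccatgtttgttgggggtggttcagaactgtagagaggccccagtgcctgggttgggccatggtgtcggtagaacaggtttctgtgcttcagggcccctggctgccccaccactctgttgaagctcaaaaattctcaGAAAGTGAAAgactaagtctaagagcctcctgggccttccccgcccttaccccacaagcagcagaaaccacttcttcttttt
Cybb held 3 matches, which began 168, 124 and 29 bases before the start, and the first pair lies on the opposite strand, where it reads TTTC, 2 bases and TTTC as printed. Ncf1 held 1 match, which began 82 bases before the start, and Cyba held 0. This motif was in 978 of 32851 promoters of the same length, or 3%. GAGGAA, the core of the motif bound by PU.1, was in 23.3% of them on either strand and in 0 of the 3. A match describes the letters and does not show binding.

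Per length, the 7 genes covered a wide range of levels, and their order changed between origins, though in culture several of them overlapped. Values here are CPM per kb of exon, with all annotated exons of a gene counted once. In tumour CD71+ libraries Ncf1 stood highest at 287 and 245 CPM per kb, followed by Ncf4 at 119 and 95 CPM per kb. Rac2 at 102 and 82.7 CPM per kb overlapped with both Ncf4 and Cyba, which was at 98.9 and 62.7 CPM per kb. Rac1 was at 55.2 and 56.4 CPM per kb, Cybb at 39.7 and 39.5 CPM per kb and Hvcn1 at 8.26 and 9.43 CPM per kb, each apart from its neighbours. Tumour CD71- libraries had the same order with no neighbours that overlapped, from 512 and 444 CPM per kb for Ncf1 down to 15.8 and 19.7 CPM per kb for Cybb and 3.33 and 2.06 CPM per kb for Hvcn1.

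In culture CD71+ libraries Cyba stood highest at 124 and 119 CPM per kb, ahead of Ncf1 at 91.7 and 89.1 CPM per kb. Ncf4 (74.2 and 83 CPM per kb) and Cybb (89.2 and 67.9 CPM per kb) overlapped there. Both overlapped with Rac2 (74.9 and 55.5 CPM per kb), and Cybb also with Ncf1. In culture CD71- libraries Ncf4 (118 and 117 CPM per kb), Ncf1 (107 and 124 CPM per kb), Rac2 (78.8 and 125 CPM per kb) and Cyba (74.8 and 120 CPM per kb) each overlapped with the next. Cybb (46.9 and 36.7 CPM per kb) and Rac1 (36 and 41.5 CPM per kb) also overlapped with each other. Hvcn1 was the lowest of the 7 genes in every library, at 15.8 and 12.4 CPM per kb in culture CD71+ and 5.39 and 8.83 CPM per kb in culture CD71- libraries.

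**Figure D2:**
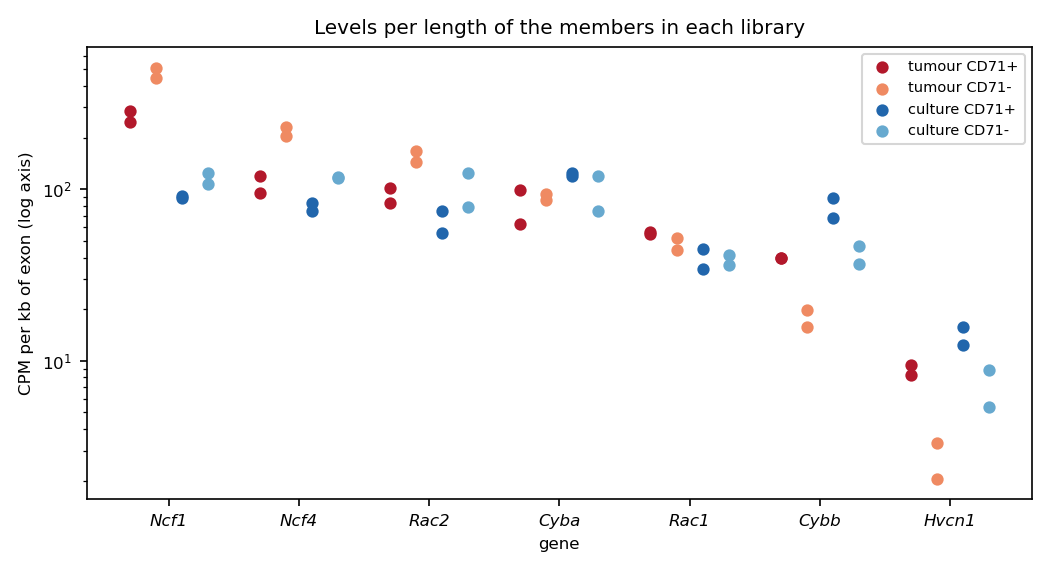
Level of each gene in CPM per kb of exon (y axis, log scale) in the 8 libraries, coloured by group, 1 point a library. Ncf1 stood at 245 to 512 CPM per kb in tumour and 89.1 to 124 CPM per kb in culture libraries, and Cybb at 15.8 to 39.7 CPM per kb in tumour and 36.7 to 89.2 CPM per kb in culture libraries.

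How far a gene moved between groups depended on how libraries were scaled, and the scalings moved all genes together. The median log2 fold change of all 15975 genes tested between tumour CD71+ and CD71- cells was 0.13 with TMM factors, which are used below unless stated, -0.07 with DESeq2 size factors, 0.69 with total counts and 1.06 when scaled on mature neutrophil genes. In culture it was 0.03, 0 (DESeq2 size factors), 0.34 and 0.89 in the same order. Between tumour and culture it was -0.08, -0.01, -0.76 and -1.97 in CD71+ cells, and -0.28, -0.04, -1.21 and -2.24 in CD71- cells. The members' fold changes are therefore also given relative to that median, as a range over the 4 scalings, and ratios between genes of the same library do not depend on scaling at all. Subtracting the median takes the scaling out, so these ranges are narrow by construction and are no sign of stability.

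In the tumour, the core subunit and the proton channel were higher in CD71+ than in CD71- cells. Ncf1, Ncf4 and Rac2 were lower with TMM factors, but these calls did not hold under all scalings. Of the 7 genes, 2 passed as higher and 3 as lower, where 43.5% of all genes tested passed in either direction (26.2% as higher and 17.3% as lower). Without tumour CD71- replicate 2, 4495 genes passed, against 6951 with it. With total counts 3 members passed as higher and 1 as lower (42.5% and 3.07% of all genes), and scaled on mature neutrophil genes 4 passed as higher and 0 as lower (54.2% and 0.225% of all genes). The groups did not overlap for 6 of the 7 genes, and for 72.5% of all genes tested. The members' median log2 fold change was -0.16, against 0.13 for all genes.

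Cybb, the catalytic core, was at 231 and 230 CPM in tumour CD71+ cells, against 91.6 and 114 CPM in tumour CD71- cells. Both CD71+ libraries were above both CD71- libraries, by 2.23-fold (log2 fold change 1.16, SE 0.19, adjusted p = 0.000466, edgeR's quasi-likelihood test, adjusted by Benjamini-Hochberg over all genes, as for every adjusted p below). Relative to the median gene it was 1.01 to 1.05 higher on the log2 scale. Hvcn1, the proton channel, was at 29.4 and 33.6 CPM in tumour CD71+ cells, against 11.9 and 7.34 CPM in tumour CD71- cells. It was 3.28-fold higher, with no overlap (log2 fold change 1.71, SE 0.29, adjusted p = 0.000514), and 1.57 to 1.59 higher relative to the median gene. With TMM factors 26.5% of all genes tested had a higher log2 fold change than Cybb, and 18% had a higher one than Hvcn1. Tctn1, which overlaps Hvcn1 on the other strand, had its levels the other way round with TMM factors, at 18.2 and 14.1 CPM in tumour CD71+ and 30.3 and 24.2 CPM in tumour CD71- cells.

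Cyba, the membrane partner of gp91phox, did not move with it. It was at 103 and 65.1 CPM in tumour CD71+ cells, against 97.2 and 90.1 CPM in tumour CD71- cells, and the groups overlapped. Its log2 fold change was -0.16 (SE 0.24, adjusted p = 0.619), and among the 4 scalings it passed as higher in 1, that on mature neutrophil genes (0.78, adjusted p = 0.0246). The ratio of Cybb to Cyba per length was 0.402 and 0.631 in tumour CD71+ cells, against 0.169 and 0.227 in tumour CD71- cells. In the tumour the pair thus shifted relative to each other whatever the scaling. In culture the ratio was 0.721 and 0.572 in CD71+ cells, against 0.627 and 0.307 in CD71- cells, and the groups overlapped. Relative to the median gene, Cyba was at -0.31 to -0.28 in the tumour.

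Ncf1, the p47phox organiser, had the highest level of the 7 genes in the tumour, at 1051 and 898 CPM in CD71+ cells, against 1874 and 1627 CPM in CD71- cells. It was 1.8-fold lower in CD71+ cells with TMM factors (log2 fold change -0.84, SE 0.17, adjusted p = 0.0016), but the call was lost with total counts (-0.28, adjusted p = 0.182) and its direction turned with scaling on mature neutrophil genes (0.08, adjusted p = 0.79). Ncf4, which encodes the phosphoinositide-binding p40phox, was at 240 and 192 CPM in tumour CD71+ cells, against 468 and 410 CPM in tumour CD71- cells. It was 2.03-fold lower with TMM factors (log2 fold change -1.02, SE 0.17, adjusted p = 0.000443) and at -0.09 when scaled on mature neutrophil genes (adjusted p = 0.766). Relative to the median gene, Ncf1 was at -0.99 to -0.98 and Ncf4 at -1.17 to -1.15 under the 4 scalings. With TMM factors 15.5% of all genes tested had a lower log2 fold change than Ncf1, and 10.2% had a lower one than Ncf4.

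Rac2, the Rac protein that is largely restricted to blood cells, was at 317 and 257 CPM in tumour CD71+ cells, against 446 and 515 CPM in tumour CD71- cells. It passed as lower with TMM factors (log2 fold change -0.74, SE 0.23, adjusted p = 0.0168), but not with total counts (-0.19, adjusted p = 0.495), and its direction turned when scaled on mature neutrophil genes (0.21, adjusted p = 0.507). The call was lost when tumour CD71+ replicate 2 was left out (adjusted p = 0.113), and likewise for tumour CD71- replicate 2 (adjusted p = 0.081). Rac1, its widely expressed relative, was at 248 and 253 CPM in tumour CD71+ cells, against 198 and 233 CPM in tumour CD71- cells (log2 fold change 0.22, SE 0.18, adjusted p = 0.335). It passed as higher with total counts (0.78, adjusted p = 0.00332), as it did with mature neutrophil genes as the scale (1.17, adjusted p = 0.000141). Daglb, which shares much of the Rac1 exon sequence on the other strand, was at 83.7 and 100 CPM in tumour CD71+ and 27.9 and 25.4 CPM in tumour CD71- cells. Its part in the Rac1 counts was not tested. Rac2 was at -0.9 to -0.86 and Rac1 at 0.07 to 0.11 relative to the median gene.

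Marker genes moved in the same comparison. Of 25 mature neutrophil genes, 20 passed as lower in tumour CD71+ cells (median log2 fold change -1.02, against 0.13 for all genes). Of 19 tested macrophage and monocyte genes 15 passed as higher (median 3.04), and of 10 microglia genes 10 passed as higher (median 3.49). Of the other marker lists, 5 of 8 dendritic cell, 3 of 4 lymphocyte, 4 of 8 glioma and neural and 4 of 8 endothelial and stromal genes passed as higher. In the dendritic cell list 1 gene passed as lower, and in the endothelial and stromal list 1 did. The summed dendritic cell level was 294 to 342 CPM in tumour CD71+ and 304 to 544 CPM in tumour CD71- libraries. Among all genes tested 26.2% passed as higher and 17.3% as lower. The medians of 6 eosinophil, basophil and mast cell genes and of 6 early neutrophil and primary granule genes were 0.01 and -0.35. The part of these cell type markers in the members' differences was not tested.

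**Figure D3:**
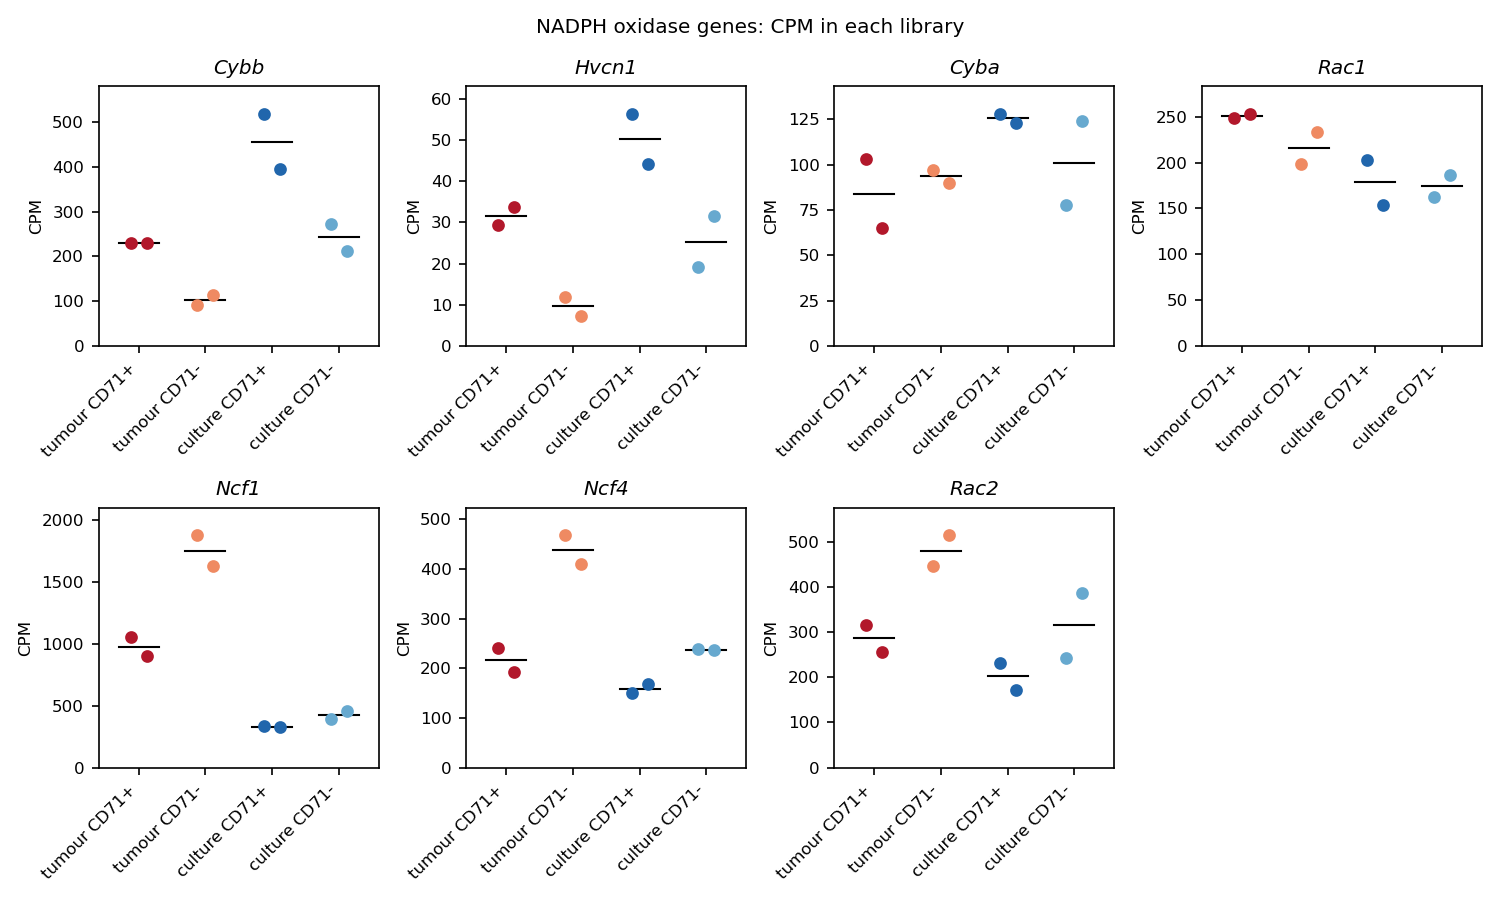
CPM of the 7 genes (y axes, linear, from 0) in each library, with TMM scaling, 1 point a library and a line at each group mean. Cybb and Hvcn1 were higher in CD71+ than in CD71- libraries of both origins under all 4 scalings, while the lower levels of Ncf1 and Rac2 in tumour CD71+ libraries, and of Ncf4 in culture CD71+ libraries, turned round when scaled on mature neutrophil genes.

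In culture, the same comparison gave smaller counts. Of the 7 genes, 2 passed as higher and 1 as lower in CD71+ cells, where 16.2% of all genes tested passed in either direction (7.88% as higher and 8.36% as lower). Without culture CD71+ replicate 1, 826 genes passed, and without culture CD71+ replicate 2, 1050 genes did, against 2595 with all libraries. With total counts 3 passed as higher and 0 as lower (16.4% and 3.87% of all genes), and scaled on mature neutrophil genes 4 and 0 did (51.3% and 1.31% of all genes). The groups did not overlap for 5 of the 7 genes, and for 60.8% of all genes tested. The members' median log2 fold change was 0.03, as for all genes.

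Cybb was at 518 and 394 CPM in culture CD71+ cells, against 273 and 213 CPM in culture CD71- cells. It was 1.88-fold higher (log2 fold change 0.91, SE 0.19, adjusted p = 0.00538) and 0.86 to 0.88 higher than the median gene. Hvcn1 was at 56.3 and 44.2 CPM in culture CD71+ cells, against 19.2 and 31.5 CPM in culture CD71- cells. It was 1.99-fold higher (log2 fold change 1, SE 0.26, adjusted p = 0.019) and 0.95 to 0.98 higher than the median gene. With TMM factors 15.1% of all genes tested had a higher log2 fold change than Cybb, and 13.5% had a higher one than Hvcn1. Tctn1 was at 20.5 and 23.2 CPM in culture CD71+ and 34.7 and 39.2 CPM in culture CD71- cells, again opposite to Hvcn1. Without culture CD71+ replicate 1 neither call held, with adjusted p = 0.0965 for Cybb and adjusted p = 0.193 for Hvcn1. Hvcn1 was also lost without culture CD71- replicate 1 (adjusted p = 0.0903) and when only the culture libraries were fitted (adjusted p = 0.051).

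Ncf4 was at 150 and 168 CPM in culture CD71+ cells, against 239 and 236 CPM in culture CD71- cells. It passed as lower with TMM factors (log2 fold change -0.58, SE 0.17, adjusted p = 0.0302), but not with total counts (-0.27, adjusted p = 0.277), and its direction turned when scaled on mature neutrophil genes (0.29, adjusted p = 0.294). The call was lost without culture CD71+ replicate 1 (adjusted p = 0.299), culture CD71+ replicate 2 (adjusted p = 0.128) or culture CD71- replicate 1 (adjusted p = 0.0534). Ncf1 was at 336 and 326 CPM in culture CD71+ cells, against 392 and 453 CPM in culture CD71- cells (log2 fold change -0.35, SE 0.17, adjusted p = 0.181). Rac2 was at 232 and 172 CPM in culture CD71+ cells, against 244 and 387 CPM in culture CD71- cells (log2 fold change -0.64, SE 0.22, adjusted p = 0.0668). It passed as lower without culture CD71- replicate 1 (adjusted p = 0.00812) and in DESeq2's Wald test (adjusted p = 0.0316). Cyba, at 128 and 123 CPM in culture CD71+ and 77.8 and 124 CPM in culture CD71- cells, and Rac1, at 203 and 154 CPM in culture CD71+ and 162 and 186 CPM in culture CD71- cells, overlapped between the groups and did not pass with TMM factors. Relative to the median gene, Ncf4 was at -0.63 to -0.6, Ncf1 at -0.4 to -0.37, Rac2 at -0.69 to -0.66, Cyba at 0.27 to 0.3 and Rac1 at -0.01 to 0.01.

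Beside these values, 11 of 25 mature neutrophil genes passed as lower in culture CD71+ cells, where 8.36% of all genes tested passed as lower and 7.88% as higher. Of 19 tested macrophage and monocyte genes 12 passed as higher, and of 10 microglia genes 4 did. From the other lists, 3 of 8 dendritic cell and 1 of 8 endothelial and stromal genes passed as higher. As lower passed 3 of 6 eosinophil, basophil and mast cell genes. The lymphocyte, glioma and neural and early neutrophil lists gave 0 in either direction. Their part in the members' differences was not tested.

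The difference between the CD71 effects in the tumour and in culture was tested as an interaction. Of the 7 genes 0 passed, where 15.5% of all genes tested did, and 966 to 1255 genes, against 2470, without 1 of the tumour CD71- or culture CD71+ libraries. At an unadjusted p under 0.05, edgeR's quasi-likelihood test with TMM factors gave 0 of the 7 genes and 4925 of all genes. That test gave 2 members and 5010 genes with DESeq2 size factors, and 1 and 5213 with total counts. Scaled on mature neutrophil genes, it gave 0 and 4306. DESeq2's Wald test passed 1 member after adjustment, Ncf1 (log2 difference -0.67, adjusted p = 0.0373). The estimates, tumour effect minus culture effect, were 0.25 for Cybb (SE 0.27), 0.72 for Hvcn1 (SE 0.39), -0.48 for Cyba (SE 0.34), -0.49 for Ncf1 (SE 0.24), -0.44 for Ncf4 (SE 0.24), 0.18 for Rac1 (SE 0.25) and -0.1 for Rac2 (SE 0.32). These errors leave room for differences of a size similar to several of the effects, so equal effects were not shown.

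Between origins, Ncf1 was the member farthest from the median gene, 1.64 above it in CD71+ cells and 2.33 to 2.34 above it in CD71- cells under the 4 scalings. With TMM factors 19.9% of all genes tested had a higher log2 fold change than Ncf1 in CD71+ cells, and 17.8% did in CD71- cells. In CD71+ cells, tumour against culture, 3 genes passed as higher and 3 as lower, where 57.9% of all genes tested passed in either direction (30.3% as higher and 27.6% as lower). In CD71- cells 3 passed as higher and 2 as lower, where 67.1% of all genes tested passed (30.3% as higher and 36.8% as lower). With total counts 1 passed as higher and 3 as lower in CD71+ cells (20.6% and 49.8% of all genes), and 1 as higher and 4 as lower in CD71- cells (18.7% and 55.3% of all genes). Scaled on mature neutrophil genes, 0 passed as higher and 6 as lower in CD71+ cells (11% and 72.9% of all genes) and likewise in CD71- cells (10.3% and 70.4% of all genes). The groups did not overlap for 7 of 7 genes in CD71+ cells and 6 of 7 in CD71- cells, where 82.5% and 82.7% of all genes tested did not. These comparisons share libraries with the ones above.

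Ncf1 was at 1051 and 898 CPM in tumour CD71+ cells, against 336 and 326 CPM in culture CD71+ cells, 2.94-fold higher with TMM factors (log2 fold change 1.56, SE 0.17, adjusted p = 3.9e-06), with a direction that turned only when scaled on mature neutrophil genes (-0.33, adjusted p = 0.191). In CD71- cells, with 1874 and 1627 CPM in the tumour against 392 and 453 CPM in culture, it was 4.15-fold higher (log2 fold change 2.05, SE 0.18, adjusted p = 2.12e-07). That change was 0.1 when scaled on mature neutrophil genes (adjusted p = 0.701).

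The estimates for Cybb and Hvcn1 lay below 0 in tumour against culture under all 4 scalings and in both fractions. Cybb was at 231 and 230 CPM in tumour CD71+ and 518 and 394 CPM in culture CD71+ cells (log2 fold change -0.99, SE 0.19, adjusted p = 0.000556). In CD71- cells it was at 91.6 and 114 CPM in the tumour, against 273 and 213 CPM in culture (log2 fold change -1.24, SE 0.19, adjusted p = 7.01e-05). Hvcn1 passed as lower in CD71- cells (log2 fold change -1.39, SE 0.29, adjusted p = 0.000762) and, with TMM factors, in CD71+ cells (-0.67, SE 0.26, adjusted p = 0.0388). Relative to the median gene, Cybb was at -0.9 to -0.89 in CD71+ and -0.97 to -0.95 in CD71- cells, and Hvcn1 at -0.59 to -0.58 and -1.11 to -1.1. The CD71+ call of Hvcn1 was lost with DESeq2 size factors (adjusted p = 0.0637), and without tumour CD71+ replicate 1 (adjusted p = 0.143) or culture CD71+ replicate 1 (adjusted p = 0.217).

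For Ncf4, Rac1 and Rac2 the direction between origins depended on scaling, and for Cyba it did so in CD71- cells. Ncf4 was higher in the tumour with TMM factors, by 0.44 in CD71+ cells (SE 0.17, adjusted p = 0.0358) and by 0.89 in CD71- cells (SE 0.17, adjusted p = 0.00038). With total counts it was at -0.24 in CD71+ and -0.04 in CD71- cells. Rac2 was higher by 0.61 in CD71- cells (SE 0.22, adjusted p = 0.0284) and at 0.5 in CD71+ cells (SE 0.22, adjusted p = 0.0688), but at -0.31 in CD71- cells with total counts. Rac1 was higher by 0.49 in CD71+ cells (SE 0.18, adjusted p = 0.0281) and at 0.31 in CD71- cells (SE 0.18, adjusted p = 0.139), but at -0.18 and -0.61 with total counts. Cyba was lower in CD71+ cells (-0.59, SE 0.24, adjusted p = 0.0482) and at -0.11 in CD71- cells (SE 0.24, adjusted p = 0.703). With total counts Cyba passed as lower in CD71+ (-1.27, adjusted p = 0.000132) and CD71- cells (-1.03, adjusted p = 0.000664), as it did when scaled on mature neutrophil genes (-2.47 and -2.07), while with DESeq2 size factors it passed in neither (-0.51, adjusted p = 0.0814, and 0.14, adjusted p = 0.631). Relative to the median gene, Cyba was at -0.51 to -0.5 in CD71+ and 0.16 to 0.18 in CD71- cells. On that measure Ncf4 was at 0.52 to 0.53 in CD71+ and 1.17 in CD71- cells, Rac1 at 0.58 to 0.59 and 0.57 to 0.6, and Rac2 at 0.58 to 0.6 and 0.86 to 0.9. The CD71+ call of Cyba with TMM factors was lost in 5 of the fits that left out 1 library, with adjusted p = 0.28 without tumour CD71+ replicate 2, 0.0899 and 0.0908 without tumour CD71- replicate 1 or 2, and 0.12 and 0.0865 without culture CD71+ replicate 1 or 2. The CD71+ call of Ncf4 was lost without tumour CD71+ replicate 1 (adjusted p = 0.338), culture CD71+ replicate 1 (adjusted p = 0.274) or culture CD71+ replicate 2 (adjusted p = 0.106). That of Rac1 was lost without tumour CD71+ replicate 1 or 2 (adjusted p = 0.094 and 0.138) or culture CD71+ replicate 2 (adjusted p = 0.364). The CD71- call of Rac2 was lost without tumour CD71- replicate 2 (adjusted p = 0.0977) or culture CD71- replicate 1 (adjusted p = 0.224), while Rac2 passed in CD71+ cells without culture CD71- replicate 1 (adjusted p = 0.0272) or 2 (adjusted p = 0.0257), and Rac1 passed in CD71- cells without tumour CD71- replicate 1 (adjusted p = 0.0376).

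Markers of several cell types differed between origins as well. Of all genes tested, 30.3% passed as higher and 27.6% as lower in CD71+ cells, and 30.3% and 36.8% in CD71- cells. With TMM factors 19 of 25 mature neutrophil genes passed as higher and 3 as lower in tumour CD71+ against culture CD71+ cells, and 18 passed as higher and 3 as lower in CD71- cells. Of 19 tested macrophage and monocyte genes 13 passed as higher and 1 as lower in CD71+ cells, and 11 and 4 did in CD71- cells. Of 10 microglia genes 10 passed as higher in CD71+ cells, and 7 passed as higher and 1, Tmem119, as lower in CD71- cells. Genes of the glioma and neural list (7 of 8 in CD71+ and 6 of 8 in CD71- cells), of the endothelial and stromal list (7 and 5 of 8) and of the lymphocyte list (3 and 3 of 4) also passed as higher in the tumour. As lower passed 1 endothelial and stromal gene in CD71+ cells and 1 lymphocyte gene in CD71- cells. In both culture CD71+ libraries 11 of the 14 glioma and neural genes were at 0. Of 8 dendritic cell genes 3 passed as higher and 1 as lower in CD71+ cells, and 4 and 2 did in CD71- cells. Of 6 eosinophil, basophil and mast cell genes 2 passed as higher and 3 as lower in CD71+ cells, and 1 and 4 did in CD71- cells. Of 6 early neutrophil genes 2 passed as higher and 3 as lower in each fraction. Their part in the members' differences was not tested.

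**Figure D4:**
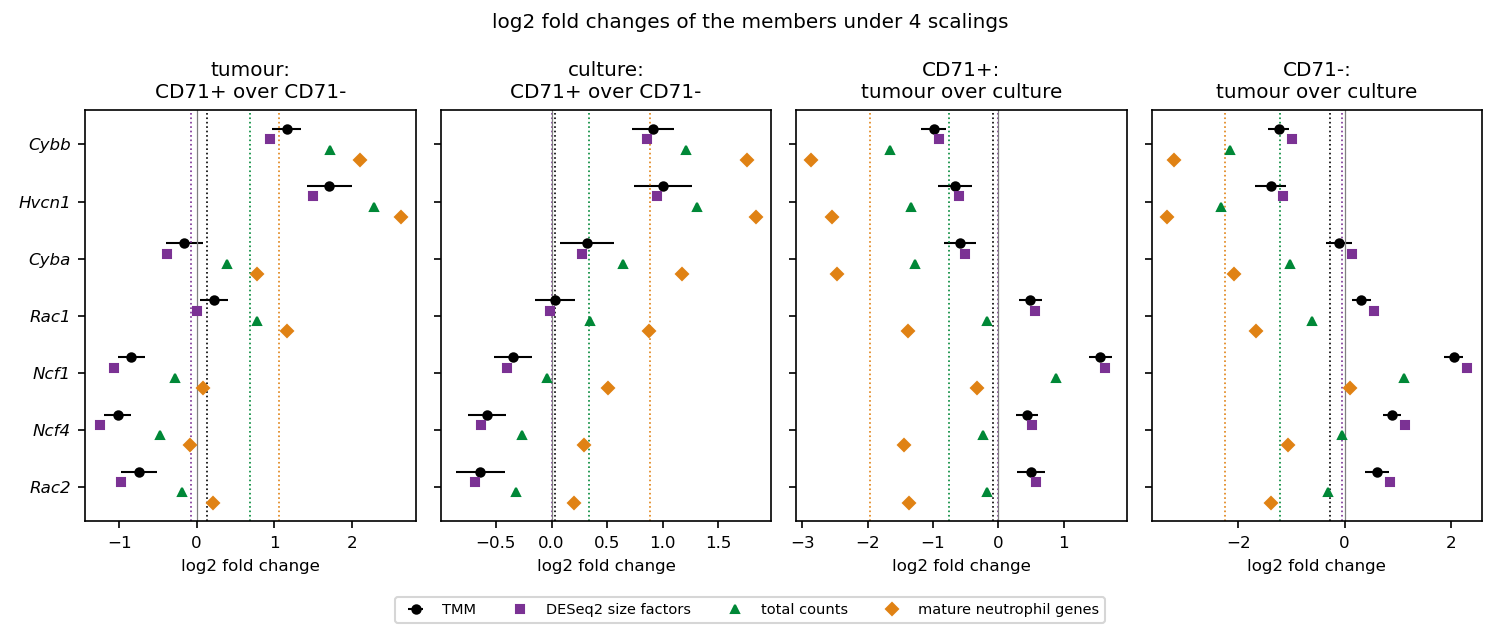
log2 fold changes (x axes) of the 7 genes in 4 comparisons under 4 scalings, with bars of 1 SE for TMM and dotted lines at the median of all genes under each scaling. Scalings shift the genes and the median together, so that in tumour CD71+ against CD71- cells Cybb stays 1.01 to 1.05 above the median and Ncf4 stays at -1.17 to -1.15 relative to it, while single directions such as that of Ncf1 turn when scaled on mature neutrophil genes.

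The balance between subunits within a library, which needs no scaling, was computed for pairs of the genes. The pairs Cybb with Ncf1, Ncf1 with Ncf4 and Hvcn1 with Cybb were added to those first planned. Cybb per Ncf1, both per length, was 0.138 and 0.161 in tumour CD71+, 0.0308 and 0.0444 in tumour CD71-, 0.972 and 0.762 in culture CD71+, and 0.439 and 0.297 in culture CD71- libraries. No library overlapped with another group. With TMM factors the estimates for Cybb and Ncf1 had opposite signs in each of these comparisons. Their ratio therefore restates those differences and is no separate support. How many other gene pairs separate the groups this way was not computed. The ratio was higher in CD71+ than in CD71- libraries of both origins, and lower in the tumour than in culture in both fractions. Rac2 per Rac1 was 1.85 and 1.47 in tumour CD71+, against 3.26 and 3.2 in tumour CD71- libraries, and 1.66 and 1.62 in culture CD71+, against 2.19 and 3.01 in culture CD71- libraries. As counted, Rac2 was above Rac1 in every library, and the ratio was lower in CD71+ libraries of both origins. Rac1 shares 51.36% of its exon length with Daglb, and the strand setting of the counting is not known. The level of this ratio, and which gene stood higher, are therefore uncertain. The part of Daglb in its differences was not tested.

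Of the cytosolic subunits, Ncf1 and Ncf4 kept a ratio that followed origin more than sort fraction. Ncf1 per Ncf4 was 2.42 and 2.58 in tumour CD71+ and 2.21 and 2.19 in tumour CD71- libraries, against 1.24 and 1.07 in culture CD71+ and 0.903 and 1.06 in culture CD71- libraries. All tumour libraries were above all culture libraries. Hvcn1 per Cybb was 0.208 and 0.239 in tumour CD71+, 0.211 and 0.105 in tumour CD71-, 0.177 and 0.183 in culture CD71+, and 0.115 and 0.241 in culture CD71- libraries, with groups that overlapped. With 2 libraries a group, these ratios were given without a test. Those with Hvcn1 or Ncf1 carry the uncertainty of exons shared with the opposite strand as well.

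**Figure D5:**
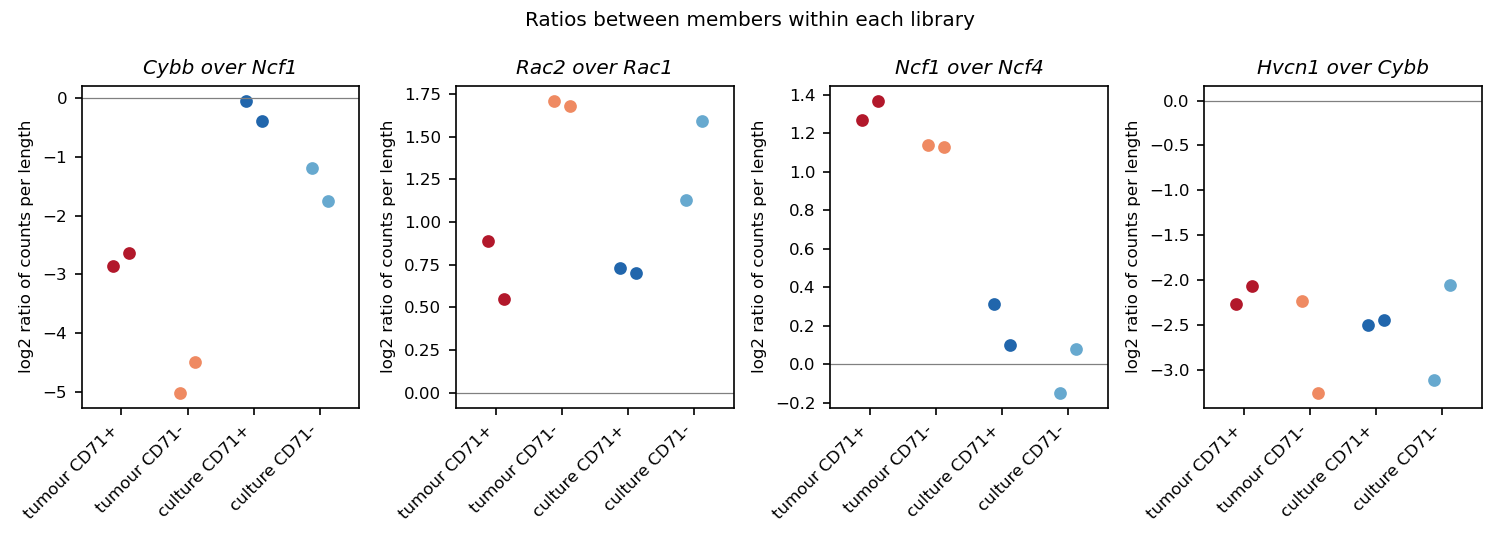
log2 ratios of counts per length (y axes) between pairs of the genes within each library, 1 point a library. Cybb over Ncf1 separates all 4 groups (-2.85 and -2.63, -5.02 and -4.49, -0.04 and -0.39, -1.19 and -1.75 in the order drawn), Ncf1 over Ncf4 separates tumour from culture, and Hvcn1 over Cybb overlaps between groups.

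Genes that activate or regulate the oxidase were taken from a list of 28 with the chaperone of gp91phox, Rac regulators, kinases and the S100 proteins, of which 26 were tested. In tumour CD71+ against CD71- cells 4 passed as higher and 12 as lower (median log2 fold change -0.41, against 0.13 for all genes). Among all genes tested 26.2% passed as higher and 17.3% as lower. Vav2, an exchange factor for Rac proteins, was at 53.1 and 55 CPM in tumour CD71+ cells, against 5.72 and 4.3 CPM in tumour CD71- cells (log2 fold change 3.43, adjusted p = 6.13e-06). Prkca, a protein kinase C that can phosphorylate p47phox, was at 11.6 and 9.69 CPM in tumour CD71+ and 0.977 and 1.11 CPM in tumour CD71- cells (3.34, adjusted p = 2.17e-05). Tiam1, also an exchange factor for Rac, was higher by 0.81 (adjusted p = 0.0133), which with DESeq2 size factors did not pass (0.59, adjusted p = 0.0522). With TMM factors the Rac effector Pak1 (-0.85, adjusted p = 0.00183), the GTPase Rhog (-0.85, adjusted p = 0.00265) and the Rac exchange factor Dock2 (-0.75, adjusted p = 0.00401) were lower, but stood at 0.08, 0.1 and 0.17 when scaled on mature neutrophil genes.

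In culture 2 genes of that list passed as higher and 7 as lower in CD71+ cells (median -0.34, against 0.03 for all genes). Among all genes tested 7.88% passed as higher and 8.36% as lower. Vav2 (0.94, adjusted p = 0.0456) and Tiam1 (0.84, adjusted p = 0.0226) were higher, but Vav2 did not pass with DESeq2 size factors (adjusted p = 0.0566). The largest falls were those of S100a9 (-2.11, adjusted p = 2.43e-05) and S100a8 (-1.81, adjusted p = 0.000121), which carry arachidonic acid to the oxidase and are also on the mature neutrophil list, and of Vav1 (-1.1, adjusted p = 0.000604), the main Vav protein of blood cells, which stood at -0.23 when scaled on mature neutrophil genes (adjusted p = 0.396). Vav2 and Prkca passed the test of the difference between tumour and culture (2.49, adjusted p = 0.00258, and 3.46, adjusted p = 0.000631), with 5 genes of the list higher and 1 lower. That test passed 15.5% of all genes, 10.8% as higher and 4.71% as lower. Tumour against culture with TMM factors, 16 passed as higher and 4 as lower in CD71+ cells (median 0.95, against -0.08 for all genes). In CD71- cells 13 passed as higher and 6 as lower (median 0.43, against -0.28). Of all genes tested, 30.3% passed as higher and 27.6% as lower in CD71+ cells, and 30.3% and 36.8% in CD71- cells. Elmo1, a partner of Dock proteins, was higher by 2.16 in CD71+ and 2.34 in CD71- cells of the tumour with TMM factors, but at 0.27 (adjusted p = 0.229) and 0.38 (adjusted p = 0.104) when scaled on mature neutrophil genes.

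Genes of NADPH supply were tested as a list of 11. Some of their enzymes make NADPH, and others, such as those of Tkt and Nadk, do not make it themselves. In tumour CD71+ against CD71- cells 4 passed as higher and 1 as lower (median 0.47, against 0.13 for all genes), and in culture 1 passed as higher and 0 as lower (median 0.1, against 0.03). Among all genes tested 26.2% passed as higher and 17.3% as lower in the tumour, and 7.88% and 8.36% in culture. Idh1, the cytosolic isocitrate dehydrogenase, was at 19 and 18.3 CPM in tumour CD71+, 6 and 4.57 CPM in tumour CD71-, 165 and 116 CPM in culture CD71+, and 76.2 and 73.2 CPM in culture CD71- libraries. It was higher in CD71+ cells of the tumour (1.82, adjusted p = 9.08e-05) and of culture (0.91, adjusted p = 0.00593). H6pd (0.89, adjusted p = 0.00901) and Tkt (0.79, adjusted p = 0.0465), both of pentose phosphate metabolism, were also higher in tumour CD71+ cells with TMM factors, though Tkt did not pass with DESeq2 size factors (0.57, adjusted p = 0.136), and the NAD kinase Nadk was lower with TMM factors (-0.86, adjusted p = 0.0023) but not when scaled on mature neutrophil genes (0.07). Tumour against culture with TMM factors, 2 passed as higher and 6 as lower in CD71+ cells (median -0.63, against -0.08 for all genes). In CD71- cells 2 passed as higher and 8 as lower (median -1.14, against -0.28). Of all genes tested, 30.3% passed as higher and 27.6% as lower in CD71+ cells, and 30.3% and 36.8% in CD71- cells. Pgd, of the oxidative pentose phosphate pathway, was at 178 and 156 CPM in tumour CD71+, 183 and 212 CPM in tumour CD71-, 470 and 427 CPM in culture CD71+, and 531 and 605 CPM in culture CD71- libraries. G6pdx, its first enzyme, passed the test of the difference between the CD71 effects (0.96, adjusted p = 0.0209).

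Transcription factors known to act on Cybb or Ncf genes were tested as 9 genes. In tumour CD71+ cells 3 passed as higher and 3 as lower (median -0.15, against 0.13 for all genes), where 26.2% and 17.3% of all genes tested did. Irf8, which binds the CYBB promoter in human myeloid cells and is also a factor of monocyte and microglia development, was at 93.5 and 84 CPM in tumour CD71+, 9.91 and 8.59 CPM in tumour CD71-, 8.87 and 7.01 CPM in culture CD71+, and 0.711 and 1.36 CPM in culture CD71- libraries. It was higher in CD71+ cells of the tumour (3.26, SE 0.25, adjusted p = 1.22e-06) and of culture (3, SE 0.31, adjusted p = 3.61e-05), under all 4 scalings. Meis1 (2.87, adjusted p = 0.00061) and Cebpa (2.13, adjusted p = 3.45e-05) were higher in tumour CD71+ cells. Meis1 was low there, at 3.08 and 4.14 CPM in tumour CD71+ and 0.279 and 0.693 CPM in tumour CD71- cells. In the tumour CD71- libraries 3 counts are 0.419 and 0.416 CPM, so its fold change is uncertain. In culture Meis1 was higher, at 8.81 and 9.54 CPM in CD71+ and 11.3 and 12.2 CPM in CD71- cells. Its CD71 effect differed between origins by 3.23 (SE 0.59, adjusted p = 0.00335). Irf1 (-0.89, adjusted p = 0.000999), Spi1, which encodes PU.1 (-0.69, adjusted p = 0.00977), and Satb1 (-0.56, adjusted p = 0.0427) were lower with TMM factors. Irf1, Spi1 and Satb1 stood at 0.04, 0.25 and 0.39 when scaled on mature neutrophil genes.

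In culture, 7.88% of all genes tested passed as higher and 8.36% as lower in CD71+ cells. There 1 of the 9 factors, Irf8, passed as higher and 3 as lower (median -0.35, against 0.03 for all genes). These 3 were Satb1 (-1.39), Irf1 (-1.11) and Cebpa (-0.93, adjusted p = 0.0146), so with TMM factors Cebpa passed in opposite directions in the tumour and in culture (difference 3.06, SE 0.34, adjusted p = 0.000213). The culture fall of Cebpa was lost with total counts (-0.62, adjusted p = 0.0826), and those of Cebpa (-0.08, adjusted p = 0.809), Irf1 (-0.25, adjusted p = 0.364) and Satb1 (-0.53, adjusted p = 0.0979) were lost when scaled on mature neutrophil genes. Tumour against culture with TMM factors, 6 passed as higher and 2 as lower in CD71+ cells (median 1.59, against -0.08 for all genes). In CD71- cells 5 passed as higher and 3 as lower (median 1, against -0.28). Of all genes tested, 30.3% passed as higher and 27.6% as lower in CD71+ cells, and 30.3% and 36.8% in CD71- cells. Irf8 was higher in the tumour by 3.48 in CD71+ and by 3.22 in CD71- cells. Cybb was higher in CD71+ cells of both origins and lower in the tumour in both fractions. Any part of Irf8 in the levels of Cybb was not tested.

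Channels, exchangers and pump subunits that balance charge and volume at the phagosome were tested as 8 genes. Among all genes tested 26.2% passed as higher and 17.3% as lower in CD71+ cells of the tumour, and 7.88% and 8.36% in culture. In tumour CD71+ cells 1 of the 8 passed as higher and 3 as lower (median -0.3, against 0.13 for all genes), and in culture 1 passed as higher and 0 as lower (median 0.01, against 0.03). The gene that passed as higher in both was Kcnn4, a calcium-activated potassium channel, at 16.3 and 10.2 CPM in tumour CD71+, 4.33 and 6.65 CPM in tumour CD71-, 16.2 and 16.5 CPM in culture CD71+, and 2.07 and 2.27 CPM in culture CD71- libraries. Its rise was smaller in the tumour (difference -1.65, SE 0.46, adjusted p = 0.0284). The proton pump subunits Atp6v0d1 (-0.89, adjusted p = 0.00147) and Atp6v1a (-0.66, adjusted p = 0.00513) and the chloride exchanger Clcn7 (-0.48, adjusted p = 0.0343) were lower in tumour CD71+ cells with TMM factors and at 0.04, 0.27 and 0.44 when scaled on mature neutrophil genes. Tumour against culture with TMM factors, 3 passed as higher and 2 as lower in CD71+ cells (median 0.35, against -0.08 for all genes). In CD71- cells 5 passed as higher and 2 as lower (median 1.08, against -0.28). Of all genes tested, 30.3% passed as higher and 27.6% as lower in CD71+ cells, and 30.3% and 36.8% in CD71- cells.

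Other NADPH oxidases and their partners were at low levels. The summed level of 9 such genes was 0.866 to 1.69 CPM in tumour CD71+, 0.97 to 1.26 CPM in tumour CD71-, 5.4 to 5.81 CPM in culture CD71+ and 5.89 to 8.59 CPM in culture CD71- libraries. Nox3, Noxa1, Duox1, Duoxa1 and Duoxa2 were at 0 in all 8 libraries, where a count of 0 allows up to 3 counts a library. Most of the culture signal was that of Noxo1, the organiser partner of Nox1, at 5.04 CPM in CD71+ and 6.55 CPM in CD71- cells on average, and Nox1 itself averaged at most 0.686 CPM in any group.

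Likeness in pattern was measured as the root mean square difference of log2 CPM, centred on each gene's mean, over the 8 libraries and among 9769 genes with a mean of at least 5 CPM. The nearest genes to Cybb were Manea (0.137), March1 (0.14) and Selenoi (0.171), and its nearest fellow member was Hvcn1 (0.413). Those nearest to Ncf1 were Sp110 (0.066), Aff1 (0.083) and Rbmx (0.085), and among those nearest to Ncf4 were Zfyve26 (0.077) and Fam221a (0.103). Hvcn1 lay nearest to Rps20 (0.152), Rpl12 (0.184) and Rack1 (0.189), which belong to or sit on the ribosome. Rac1 lay nearest to Ghitm (0.083), Ikzf1 (0.087) and Psme2 (0.119), and Rac2 to Cdk2ap2 (0.145), Fam32a (0.165) and Myh9 (0.167). Among those nearest to Cyba were 2510039O18Rik (0.126) and Fam117a (0.14). Among the members, Ncf4 and Rac2 were each other's nearest (0.269), as were Cybb and Hvcn1. The points of each pattern share 4 groups of 2 libraries.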

How the data were processed

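The deposited table gives read counts per gene for 8 libraries. A Zymo microprep kit gave total RNA, and a stranded Illumina kit that depletes ribosomal RNA gave the libraries, per the labels' protocols. Per the submitters' processing notes, FastQC, cutadapt, STAR, featureCounts and DESeq2 were used with mm10. Of versions and of the strand setting in counting nothing is given in the sources used here. These counts are whole and were not normalized by the authors.

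Positions and exon lengths came from GENCODE release M21, which held every gene ID. Promoters are from RefSeq (GRCm38.p6), whose table matched Cybb, Cyba and Ncf1 of the 7 genes. Counts were fitted in R 4.3.3 with edgeR 4.0.16: filterByExpr left 15975 genes, libraries were scaled by TMM factors, and group means were estimated in 1 fit over the 8 libraries, with robust quasi-likelihood dispersions, 4 residual degrees of freedom and a common coefficient of variation of 0.19 between samples. The quasi-likelihood test with Benjamini-Hochberg adjustment over all genes was run for 5 comparisons at a threshold of 0.05. CPM uses TMM-scaled library sizes. No replicate pair was within counting noise (chi-square per degree of freedom from 12.6 to 69.2).

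Alternatives were DESeq2 size factors, total counts, scaling on mature neutrophil genes, no filter, a stricter filter (5 CPM in 2 libraries), DESeq2 1.42.0 (Wald test), only the libraries compared, leaving out each library, and a replicate block. The members, the 5 pathway lists and the 9 marker lists were chosen with earlier results of these data known. From each pathway list the text names, per comparison, some of up to 3 rises and 3 falls that were largest among genes that passed with a mean of at least 5 CPM. For likeness in pattern the 3 nearest genes are named, except for some that are not reported here. The reads carry no molecular identifiers, so the limit that a count of 0 allows covers counting error only.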

Additional observations from a re-analysis of the deposited data

How the results depend on the processing

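Among member results under settings other than leaving out a library, 257 kept their direction and side of the threshold, 19 newly passed, 16 no longer passed and 16 reversed. All 16 reversals came from 2 scalings. When scaled on mature neutrophil genes, the log2 fold change between tumour CD71+ and CD71- cells was 0.78 for Cyba, 0.08 for Ncf1 and 0.21 for Rac2, and that of Ncf4 in culture was 0.29. Between tumour and culture it was -1.07 for Ncf4, -1.67 for Rac1 and -1.38 for Rac2 in CD71- cells, and -0.33 for Ncf1, -1.45 for Ncf4, -1.38 for Rac1 and -1.37 for Rac2 in CD71+ cells. With total counts it was -0.04 for Ncf4, -0.61 for Rac1 and -0.31 for Rac2 in CD71- cells, and -0.24 for Ncf4 and -0.18 for Rac1 in CD71+ cells. The cause was not tested.

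Among counts of genes that passed, scaling on mature neutrophil genes gave 8400 of all genes in culture, against 2595 with TMM factors, and DESeq2's Wald test passed 1 member for the difference of the CD71 effects, against 0. Leaving out 1 library kept 253 member results, ended 23 and added 4. Members passing ran from 4 to 5 in the tumour, 0 to 3 in culture, 3 to 7 between origins in CD71+ cells, 4 to 6 in CD71- cells, and stayed at 0 for the difference. All genes passing ran from 4495 to 7712 in the tumour, lowest without tumour CD71- replicate 2, and from 826 to 2880 in culture, with 826 and 1050 without culture CD71+ replicate 1 or 2. Between origins they ran from 7034 to 10537 in CD71+ cells and 8836 to 11216 in CD71- cells, and from 966 to 3609 for the difference. The difference gave 1255 and 966 without tumour CD71- replicate 1 or 2, and 1014 and 1012 without culture CD71+ replicate 1 or 2. A fit with 1 library in a group assumes that it varies like the other groups.

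Replicate numbers are shared by the groups, but same-numbered samples did not deviate together throughout (correlations of deviations from -0.18 to 0.123). Between CD71+ and CD71- samples of the same origin the correlation was 0.123 in the tumour and 0.0209 in culture. With 2 libraries a group these values cannot show whether same-numbered samples share an animal or a dish, and the main fit had no pairing. A fit with the replicate number as a block changed 2 of 35 member results, both between origins in CD71+ cells, where Cyba (adjusted p = 0.0678) and Hvcn1 (adjusted p = 0.0578) no longer passed, which leaves 4 members, and it passed 6335 genes in the tumour and 2135 in culture. A block with the numbers crossed between origins, added after seeing the data, passed 7462 genes in the tumour and 3483 in culture. Depth limits Hvcn1 most, the lowest of the 7 genes in CPM in every library.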
